A study of Homo sapiens with 6 samples.

Results

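The NR4A family of orphan nuclear receptors was followed through its 3 genes, NR4A1, NR4A2 and NR4A3, which were 3 of the 4101 genes in the expression table. They were found in the table by gene name. They had been chosen by their difference in level between the METH-treatment and PBS-treatment groups, measured in the same 6 libraries, so their values are given below as a description, with no test. NR4A receptors are transcription factors of the nuclear receptor superfamily that act without a known natural ligand, so that their activity is set largely by how much of them a cell makes. Their genes belong to the immediate early genes, which are switched on quickly after calcium, cAMP, growth factor or stress signals. The proteins bind the NBRE, an element read by a single receptor molecule, and NR4A1 and NR4A2 can also pair with the retinoid X receptors. NR4A2, also called Nurr1, is required for the dopaminergic identity of midbrain neurons.

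RNA sequencing was used to measure expression in wild-type SH-SY5Y cells, a human neuroblastoma line widely used as a dopaminergic cell model. There were 3 libraries of the METH-treatment group, given 2 mM methamphetamine (METH), a psychostimulant, for 24 h, and 3 libraries of the PBS-treatment group, given the same volume of buffer over the same time. Every sample carries Day 0 as its time in the labels, and the treatment notes of the labels and the methods of the study give 24 h. The PBS libraries are named after their columns in the table, PBS 10, PBS 11 and PBS 12, and the METH libraries are METH 1, METH 2 and METH 3. All libraries came from 1 tumour-derived line at a single time, and nothing in the labels says how far the libraries of a group came from separate cultures, so the p-values below measure only the spread between these samples. Values are CPM, that is, reads on a gene scaled to the size of the library and not to the length of the gene.

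The library denominators were 86.8 to 110.77 M reads for PBS and 85.7 to 107 M reads for METH, and 20027072 to 25449507 reads of each library fell on the table. No library was identical to another. The 15 mitochondrially encoded genes of the table took 6.16% to 11.3% of the reads in the PBS-treatment group and 4.16% to 5.44% in the METH-treatment group, and their part in the NR4A values was not tested. The table holds only genes that the study listed as differing between the groups, so a marker absent from it may still be expressed. Of 18 markers of noradrenergic neuroblastoma cells, 7 were in the table and none of them was at 0 in any library. Summed, they reached 886 to 946 CPM in PBS and 816 to 927 CPM in METH libraries. Single markers within this sum rose or fell, as given at the end. Of 12 mesenchymal markers 3 were in the table, and their sum was 455 to 743 CPM in PBS and 794 to 1146 CPM in METH libraries. Of 10 glial and immune markers only CD14 was in the table, at 0.204 ± 0.120 CPM (SD, n = 3) in PBS and 0.460 ± 0.0598 CPM (SD, n = 3) in METH libraries. The part of these other markers in the NR4A values was not tested. In bulk samples such as these, fewer cells of a type and less RNA per cell cannot be told apart.

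To show what lies just upstream of the genes, the RefSeq promoter windows of the GRCh38.p14 assembly were searched, 250 bases before each start. The table of windows matched 2 of the 3 members. NR4A2 was not analysed here in this respect. Capitals mark the letters TGACG, the core of the cAMP response element (CRE), on either strand, so that CGTCA is a core on the other strand. The windows are those of the start of NR4A3 (chr9:99821635-99821884, plus strand) and of the 2 starts of NR4A1 in the table (chr12:52022582-52022831 and chr12:52037465-52037714, plus strand).
NR4A3 upstream window: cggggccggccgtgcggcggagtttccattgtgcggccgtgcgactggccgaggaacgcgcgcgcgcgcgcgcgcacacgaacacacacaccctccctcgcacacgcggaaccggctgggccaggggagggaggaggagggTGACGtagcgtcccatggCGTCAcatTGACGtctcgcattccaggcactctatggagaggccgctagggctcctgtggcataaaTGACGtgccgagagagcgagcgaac
NR4A1 upstream window, first start: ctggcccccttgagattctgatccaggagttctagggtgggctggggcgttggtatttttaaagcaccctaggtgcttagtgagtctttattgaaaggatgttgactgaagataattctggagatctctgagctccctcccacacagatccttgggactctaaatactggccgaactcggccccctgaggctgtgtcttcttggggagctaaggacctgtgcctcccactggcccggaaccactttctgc
NR4A1 upstream window, next start: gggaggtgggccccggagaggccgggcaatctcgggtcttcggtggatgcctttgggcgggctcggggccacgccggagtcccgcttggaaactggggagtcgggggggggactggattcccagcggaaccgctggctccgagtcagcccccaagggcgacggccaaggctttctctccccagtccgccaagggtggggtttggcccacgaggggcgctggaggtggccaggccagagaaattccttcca

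The NR4A3 window held 4 CRE cores, 3 on the plus strand and 1 on the minus strand, and no full CRE (TGACGTCA, which contains the core). Counted back from the RefSeq start, their outermost base lay 109, 91, 83 and 25 bases upstream. Of all 35116 windows, 83 (0.236%) held at least 4 cores, and 21.2% held at least 1. Neither NR4A1 window held a core. No window of either gene held a full CRE (1.65% of all windows did), an NBRE (AAAGGTCA, 1.05%), a TATAAA element (10.7%), a CArG box of the serum response factor (1.16%) or a MEF2 site (0.515%). All motifs were searched on both strands. The RefSeq start of NR4A3 lies 30 bases inside the gene as GENCODE draws it, so the last 30 bases of its window are annotated there as transcribed. NR4A1 has 19 transcript starts spread over 33857 bases in GENCODE, and the windows here cover only 2 RefSeq starts. The first start equals the GENCODE start of the gene, and whether the next is among the 19 was not checked. In the windows of other induced genes, CREM and DUSP1 each held up to 1 full CRE, which reads the same on both strands. A full CRE holds a core on each strand, and CREM held up to 2 cores and DUSP1 up to 4. FOS held up to 1 core, NPAS4, SIK2 and FOSL2 up to 2 cores, and CITED2 none.

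NR4A1 (ENSG00000123358, chromosome 12, 52022832 to 52059507, plus strand, GRCh38 in GENCODE release 29) was the most abundant member in every library. It measured 18.2 CPM in PBS 10, 50.4 CPM in PBS 11 and 29.3 CPM in PBS 12. It measured 644 CPM in METH 1, 489.6 CPM in METH 2 and 264 CPM in METH 3. The groups did not overlap, and the lowest METH library lay 5.23 times above the highest PBS library. All METH libraries lay above all PBS libraries in 31.0% of the genes of the table. Mean levels were 32.6 ± 16.4 CPM (SD, n = 3) for PBS and 466 ± 191 CPM (SD, n = 3) for METH, a 14.3-fold ratio of means. On the scale of log2(CPM + 0.1), used for all log2 values below, the METH-treatment group was higher by 3.86, and the SD within groups was 0.70. Behind these levels stood 2012 to 4375 reads in each PBS library and 28214 to 55200 in each METH library, so counting error was small beside the spread between libraries.

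NR4A3 (ENSG00000119508, chromosome 9, 99821855 to 99866891, plus strand) was the next member in abundance. It measured 0.262 CPM in PBS 10, 0.392 CPM in PBS 11 and 0.215 CPM in PBS 12, from 20 to 34 reads. It measured 11.4 CPM in METH 1, 8.66 CPM in METH 2 and 5.97 CPM in METH 3, from 639 to 975 reads. The groups did not overlap, and the lowest METH library lay 15.2 times above the highest PBS library. Mean levels were 0.290 ± 0.0917 CPM (SD, n = 3) for PBS and 8.67 ± 2.70 CPM (SD, n = 3) for METH. The log2 difference was 4.47 with an SD within groups of 0.40. Over the pooled reads, 83 with PBS and 2401 with METH, the fold was 29.7, with a 95% interval of 23.8 to 37.4 that covers counting error only.

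NR4A2 (ENSG00000153234, chromosome 2, 156324432 to 156342348, minus strand) was near the detection floor without METH. It had 2 reads in PBS 10 (0.018 CPM), 5 in PBS 11 (0.058 CPM) and 0 in PBS 12, where a count of 0 allows up to 0.0322 CPM (3 reads). It measured 2.95 CPM in METH 1, 1.99 CPM in METH 2 and 1.72 CPM in METH 3, from 181 to 253 reads. The groups did not overlap, and the lowest METH library lay 29.7 times above the highest PBS library. The log2 difference was 4.20 with an SD within groups of 0.36. With so few reads this difference moves with the pseudocount, and it was 1.63 with 1 CPM added and 6.35 with 0.01 CPM added. The pooled reads, 7 with PBS and 618 with METH, gave a fold of 90.5 with a 95% counting interval of 43.7 to 226.

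**Figure D1:**
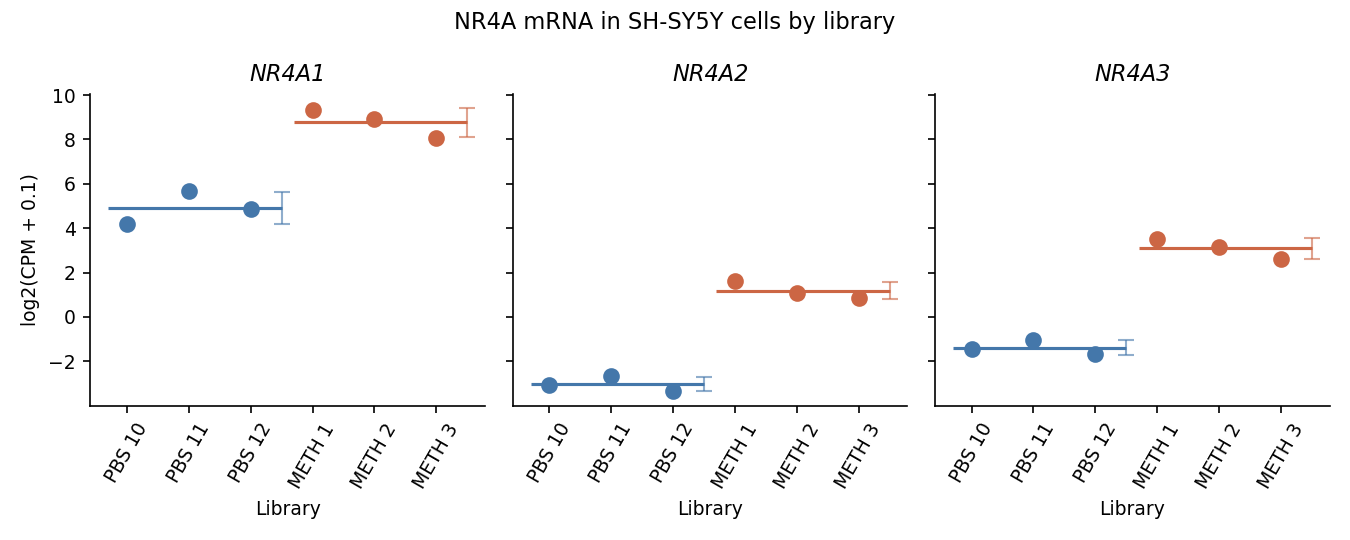
Level of NR4A1, NR4A2 and NR4A3 in each library, as log2(CPM + 0.1), with PBS in blue and METH in red. Lines are group means and bars at their ends are 1 SD (n = 3). In each of the 3 genes every METH library lies above every PBS library, as in 31.0% of all genes of the table. METH 1 is the highest and METH 3 the lowest METH library in each.

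Among all genes of the table the log2 differences ranked 3 (NR4A3), 5 (NR4A2) and 8 (NR4A1). The order of the members by their difference depends on how it is computed. On the log2 scale NR4A3 exceeded NR4A1 by 0.61 and NR4A2 by 0.27, and NR4A2 exceeded NR4A1 by 0.34. SDs within groups were 0.36 to 0.70, each for a single gene. The members share their libraries, so these SDs do not measure the spread of the gaps. The CPM ratio of NR4A1 to NR4A3, given below, was lower in every METH library than in every PBS library. With 1 CPM added, which exceeds the mean PBS levels of NR4A2 (0.0253 CPM) and NR4A3 (0.290 CPM), NR4A1 ranked above the others. It then had 3.82, against 2.87 for NR4A3 and 1.63 for NR4A2. From recovered reads, edgeR put NR4A2 first at 6.36, followed by NR4A3 at 4.83 and NR4A1 at 3.77. Leaving out any 1 library kept the log2 difference of NR4A1 between 3.50 and 4.24, that of NR4A2 between 3.99 and 4.38 and that of NR4A3 between 4.25 and 4.71.

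**Figure D2:**
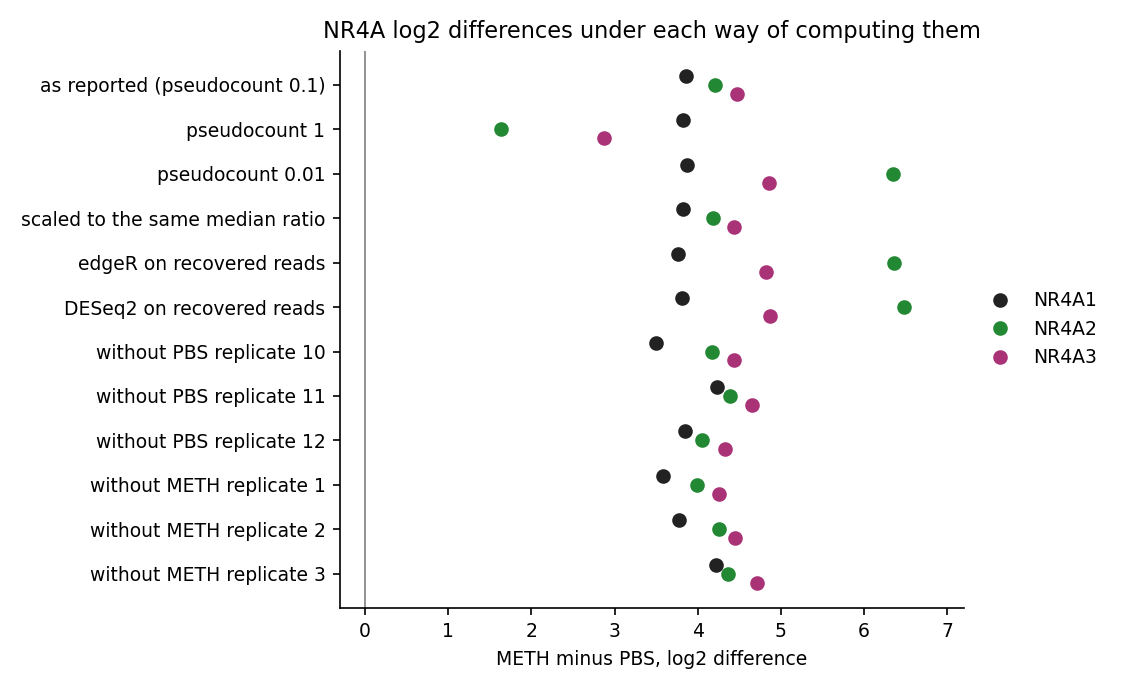
METH minus PBS log2 difference of NR4A1 (black), NR4A2 (green) and NR4A3 (purple) under each way of computing it, 1 row per setting. NR4A1 stays between 3.50 and 4.24 in all 12 rows, while NR4A2 runs from 1.63 with 1 CPM added to 6.48 in DESeq2, and all points lie above 0.

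CPM are not corrected for gene length, so levels of the members were compared per kilobase of exon, with the union of GENCODE exons (7295 bases for NR4A1, 3967 for NR4A2 and 6314 for NR4A3). With PBS, NR4A1 stood at 2.49 to 6.91 CPM per kb, NR4A3 at 0.0341 to 0.0621 and NR4A2 at 0 to 0.0146. With METH, NR4A1 stood at 36.1 to 88.3 CPM per kb, NR4A3 at 0.946 to 1.80 and NR4A2 at 0.434 to 0.744. The order NR4A1, NR4A3, NR4A2 was the same in all 6 libraries, and in neither group did neighbouring members overlap. The highest NR4A3 and NR4A2 levels with METH remained under the lowest NR4A1 level with PBS.

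Summed over the family, the level was 18.4 to 50.8 CPM for PBS (mean 32.9 ± 16.5, SD, n = 3) and 271 to 659 CPM for METH (mean 477 ± 195, SD, n = 3). NR4A1 made up 98.5% to 99.3% of this sum, that is, of the family's reads, with PBS and 97.2% to 97.9% with METH. The CPM ratio of NR4A1 to NR4A3 within a library was 69.3 to 136 with PBS and 44.2 to 56.6 with METH. The ratios of the groups did not overlap, with every METH library below every PBS library. Because NR4A3 had only 20 to 34 reads per PBS library, its counting error enters these ratios.

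The members shared their order of libraries in the METH-treatment group and only in part in the PBS-treatment group. All 3 were highest in METH 1 and lowest in METH 3, an order found in 1456 of the 4101 genes (35.5%). NR4A1 ranked in the order PBS 11, PBS 12, PBS 10, whereas NR4A2 and NR4A3 ranked in the order PBS 11, PBS 10, PBS 12. For NR4A1 both orders were the reverse of the order of the library denominators, the smallest library giving the highest CPM. The same orders as NR4A1 in both groups were found in 741 of the 4101 genes (18.1%). The share was 25.7% among the genes called up by limma, as described below, and 5.86% among those called down. The GC content of the longest transcript was 59.8% for NR4A1, 47.9% for NR4A2 and 46.9% for NR4A3.

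The libraries of a group also differed by base composition, shown here over 5 classes of 808 or 809 genes by GC content. In the class with the highest GC content, which holds NR4A1, the median log2 ratio was 0.53 for METH 1 over METH 3 and 0.75 for PBS 11 over PBS 10. In the class with the lowest GC content these medians were -0.20 and -0.42. NR4A1 itself had 1.29 and 1.47, above the median of its class in both. NR4A3 had 0.93 and 0.58 in a class with medians of -0.07 and -0.19. NR4A2 had 0.78 for the METH pair in a class with a median of 0.18, and its PBS ratio rests on 7 reads. The part of library depth and of GC content in the spread of the members was not tested.

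**Figure D3:**
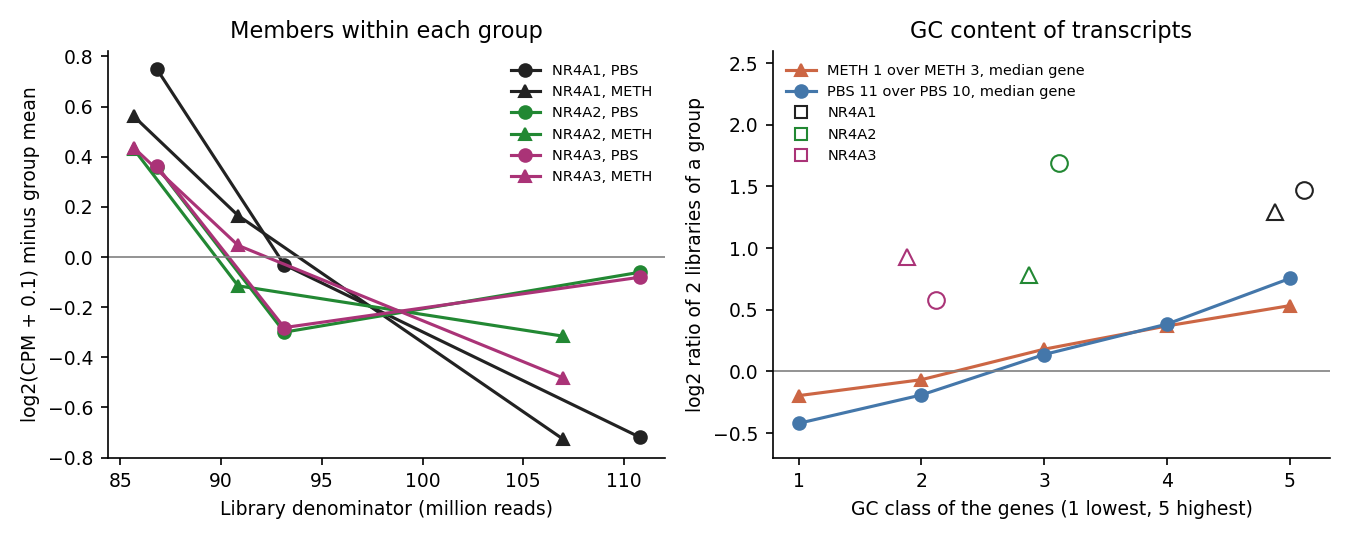
Left, the deviation of each member from its group mean (log2 scale) against the library denominator in M reads, with circles for PBS and triangles for METH. Right, the log2 ratio of METH 1 over METH 3 and of PBS 11 over PBS 10, as the median gene in each of 5 GC classes (lines) and for the members (open symbols). NR4A1 is lower in the larger library throughout in both groups, and the medians climb from -0.20 and -0.42 in the lowest class to 0.53 and 0.75 in the highest.

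No stretch of 50 bases was shared between the transcripts of NR4A1, NR4A2 and NR4A3, and NR4A2 and NR4A3 shared none with any gene of the annotation. NR4A1 shared 790 of 7796 stretches (10.1%) with other genes, 705 of them with AC025259.3, a long intergenic non-coding RNA on the opposite strand that overlaps its 3′ end. This gene, named after the values were seen, was not analysed here. Whether the counting used strand is not given in the sources used here, so reads from NR4A1 and AC025259.3 cannot be told apart over that overlap.

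By the pattern over the 6 libraries, the genes most like NR4A1 were TMEM39A, CITED2, SYT13, CGA and ARMCX1, with Pearson r of log2 values from 0.996 to 0.999. The genes most like NR4A2 were GJA1, SIK2, RTN4RL1, SNX7 and TPBG (r from 0.995 to 0.996), and those most like NR4A3 were SIK2, TPBG, SNX7, GJA1 and B4GALT4 (r from 0.994 to 0.997). The members themselves had r of 0.980 between NR4A1 and NR4A2, 0.983 between NR4A1 and NR4A3 and 0.999 between NR4A2 and NR4A3. NR4A2 and NR4A3 had 4 of their 5 most similar genes in common, and NR4A1 had none in common with either. These r are descriptions. All points share the split into METH and PBS, which alone gives a high r to any gene that differs between the groups, and the libraries' depth and base composition. The most similar genes differed widely in size of change, from a log2 fold change of 0.64 for TPBG to 5.48 for CITED2.

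The other genes of NR4A biology were taken as lists and compared by limma, with Benjamini-Hochberg adjustment over the 4101 genes and a threshold of 0.1. By that measure 69.1% of all genes of the table passed the threshold, 33.3% up and 35.8% down, since the table holds genes that the study listed as differing between these same libraries. The adjustment within such a table is lenient, and the largest unadjusted p among the genes called was 0.0691. The same selection lies behind the edgeR and DESeq2 calls and the unadjusted p-values below, which are no independent support for the calls. Without METH 2 the counts fell from 1366 up and 1467 down to 412 and 563. Adjusted over 20000 genes, about the size of an unselected table, 5.34% passed up and 4.66% down. All METH libraries lay above all PBS libraries in 31.0% of the genes, and all lay below in 33.0%. The median log2 fold change over the table was 0.11. What lies outside the table was not analysed here. Where a count of 5 or fewer includes genes beyond the 6 largest changes of a list, these are named after their values were seen.

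Of 39 genes of cAMP and CREB signalling, a route by which NR4A genes are induced, 9 were in the table, 5 of them up-regulated, 1 down-regulated and 3 not past the threshold. Their median log2 fold change was 0.75. All genes of the table had a median of 0.11, with 33.3% up-regulated and 35.8% down-regulated. SIK2, a salt-inducible kinase that restrains CREB coactivators, rose from 6.88 ± 0.628 to 22.4 ± 4.50 CPM (SD, n = 3 each; log2 fold change 1.67, standard error 0.22, limma adjusted p = 0.00384). CREM, a CREB family member that also encodes an inducible repressor, rose from 34.2 ± 5.11 to 102 ± 9.15 CPM (log2 fold change 1.58, limma adjusted p = 0.00337). PDE10A, a phosphodiesterase that degrades cyclic nucleotides, rose by 1.03, the CREB coactivator CRTC2 by 0.79 and the adenylyl cyclase ADCY5 by 0.75 on the log2 scale. The phosphodiesterase PDE4C fell by 1.06. The others were GNAS (log2 fold change 0.59), PDE4A (0.62) and ADCY3 (-0.51). The calls of SIK2 and CREM were left when 20000 genes were adjusted over. Without METH 1, 3 calls were left in place of 6. CRTC2 lost its call without METH 1 or METH 2, PDE10A without METH 1, PDE4C without PBS 11, METH 2 or METH 3, and ADCY5 when any library other than PBS 11 was left out, with limma adjusted p up to 0.266 for ADCY5 and 0.147 for the rest.

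Of 30 genes of calcium, calcineurin and MEF2 signalling, which drives NR4A1 in several cell types, 12 were in the table. Of these, 7 were up-regulated, 1 down-regulated and 4 not past the threshold, with a median of 0.70. The table as a whole had 33.3% up and 35.8% down. MEF2D, a MEF2 transcription factor of this route, rose from 25.1 ± 9.43 to 54.7 ± 13.1 CPM (SD, n = 3 each; log2 fold change 1.16, limma adjusted p = 0.0268). The class IIa histone deacetylases HDAC5 and HDAC9, which repress MEF2 factors, also rose, by 1.15 and 1.26 on the log2 scale (limma adjusted p = 0.0237 and 0.0281). Among the calmodulin-dependent kinases, CAMK2D rose by 0.89 and CAMK2A by 1.27, the latter from 0.0533 to 0.281 CPM on average (0.28 with 1 CPM added, 2.22 with 0.01 CPM added), whereas CAMKK1 fell by 0.68. The genes not past the threshold were MEF2C (0.13), CAMK1D (-0.47), CAMK1G (0.74) and CAMK2B (0.41). After limma adjustment over 20000 genes 0 of these calls were left, while 8 of the 12 had an unadjusted p under 0.05. With adjustment over the table, edgeR and DESeq2 on recovered reads each called 8. Of the 4101 genes, edgeR called 1163 up and 1637 down, and DESeq2 called 1340 up and 1653 down. These counts come from genes already listed as differing between the same libraries and are no independent support. There were 4 calls without METH 1 and 5 without METH 2 in place of 8. CAMK2A lost its call without METH 1 (limma adjusted p = 0.131), and CAMKK1 without PBS 11, PBS 12, METH 1 or METH 2 (up to 0.197). Of the 17 genes of ERK and SRF signalling on the list, 0 were in the table.

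Other rapidly induced genes of transcription and signalling made up the list with the highest median. Of 49 genes 34 were in the table, 28 up-regulated, 2 down-regulated and 4 not past the threshold, with a median of 1.52. In 22 of the 34 all METH libraries lay above all PBS libraries. Among all 4101 genes, 33.3% were up-regulated and 35.8% down-regulated, and 31.0% had all METH libraries above all PBS libraries. CITED2, a transcriptional coregulator, rose from 0.544 ± 0.474 to 26.2 ± 12.5 CPM (SD, n = 3 each; log2 fold change 5.48, standard error 0.58, limma adjusted p = 0.00172). NPAS4, a neuronal activity-dependent factor, rose by 3.95 (limma adjusted p = 0.00473), from 0.604 ± 0.409 to 10.7 ± 5.83 CPM. GEM, a small GTP-binding protein, rose by 2.99 (limma adjusted p = 0.00172). The AP-1 subunits FOSL2 and FOS rose by 2.87 and 2.79 (limma adjusted p = 0.00766 and 0.00628), and DUSP1, a phosphatase of MAP kinases, rose by 2.41 (limma adjusted p = 0.0108). INHBA fell by 0.90 and KLF10 fell by 0.83. Those not past the threshold were ZFP36 (0.79), BDNF (0.60), CYR61 (0.56) and HES1 (-0.63). Adjusted over 20000 genes, 13 were up-regulated and 0 down-regulated by limma, INHBA and KLF10 both having an unadjusted p under 0.05. The count of calls was 20 to 31 when 1 library was left out, and none of the 6 genes with the largest changes lost its call. The list was put together with earlier results of these libraries known and is no independent evidence of its direction.

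**Figure D4:**
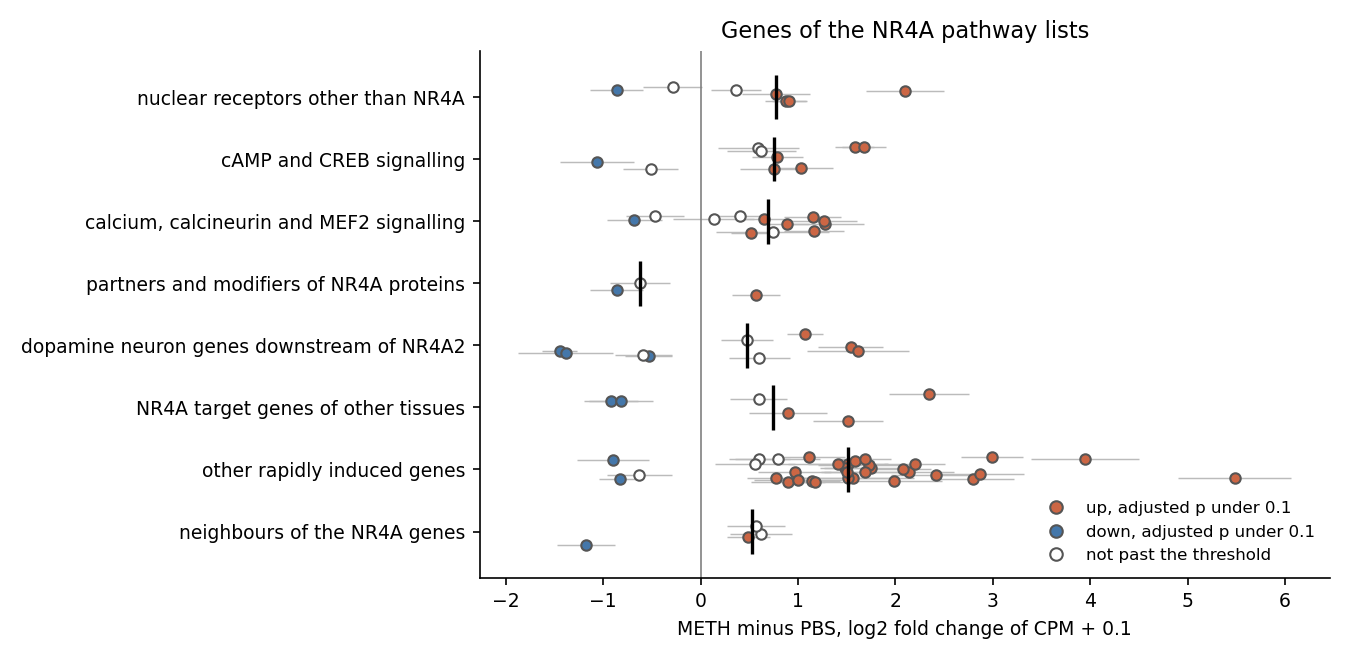
METH minus PBS log2 fold change of CPM + 0.1 for the list genes found in the table, 1 point per gene with its standard error as a grey bar, red for up-regulated, blue for down-regulated and white for not past the threshold, and a black line at the median of each list. The list of other rapidly induced genes reaches 5.48 (CITED2) and has a median of 1.52, while the lists of receptors and targets hold points on both sides of 0.

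Among partners of the NR4A proteins, 3 of 18 genes were in the table, with 1 up-regulated and 1 down-regulated. The shares over all genes of the table were 33.3% up and 35.8% down. RXRA, the retinoid X receptor that can pair with NR4A1 and NR4A2, fell from 11.3 ± 3.12 to 6.01 ± 0.758 CPM (SD, n = 3 each; log2 fold change -0.86, standard error 0.27, limma adjusted p = 0.0391). It measured 7.69, 12.7 and 13.4 CPM in PBS 10, PBS 11 and PBS 12. In METH 1, METH 2 and METH 3 it measured 6.06, 6.75 and 5.23 CPM. The groups did not overlap, and in 33.0% of all genes of the table every METH library lay below every PBS library. BCL2, an anti-apoptotic protein that NR4A1 can bind at mitochondria, rose by 0.57 (limma adjusted p = 0.0820), and RCOR1, a corepressor that NR4A2 can recruit, had -0.62 (limma adjusted p = 0.101). The count of 2 limma calls became 0 after adjustment over 20000 genes, 0 without PBS 12 or METH 1 and 1 without METH 2. BCL2 also lost its call, leaving 1, when the libraries were scaled to the same median ratio and by edgeR, while DESeq2 called 2, both limma calls having an unadjusted p under 0.05. RXRA lost its call without PBS 12 or METH 1 (limma adjusted p up to 0.109), and BCL2 when any library other than PBS 10 was left out (up to 0.197).

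Of the 45 other nuclear receptors 7 were in the table, 4 up-regulated, 1 down-regulated and 2 not past the threshold, with a median of 0.77. By comparison, 69.1% of all 4101 genes were called in either direction, 33.3% up and 35.8% down. NR1D1, a haem-binding repressor of the circadian clock, rose from 4.34 ± 2.12 to 18.6 ± 8.08 CPM (SD, n = 3 each; log2 fold change 2.10, standard error 0.40, limma adjusted p = 0.0108). NR2F1, an orphan receptor of neural development, rose by 0.91 (limma adjusted p = 0.0122), RARG, a retinoic acid receptor, by 0.88 (limma adjusted p = 0.0218) and NR1H2, an oxysterol receptor, by 0.77 (limma adjusted p = 0.0870). RXRA was the receptor that fell. PPARA (0.36) and RORB (-0.29) did not pass the threshold. There were 3 calls in place of 5 without PBS 12 or METH 1, and NR1H2 lost its call without PBS 10, PBS 12, METH 1 or METH 2 (limma adjusted p up to 0.229). NR1D1 and NR2F1 kept their calls after adjustment over 20000 genes.

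Of 22 dopamine neuron genes on a list linked to NR4A2, not all of them its established targets, 9 were in the table. Of these, 3 were up-regulated, 3 down-regulated and 3 not past the threshold, near the 33.3% up and 35.8% down of the whole table. GCH1, which starts the synthesis of the cofactor of tyrosine hydroxylase, rose from 29.6 ± 2.48 to 62.3 ± 5.59 CPM (SD, n = 3 each; log2 fold change 1.07, limma adjusted p = 0.00899). SLC18A2, the vesicular monoamine transporter, rose from 0.417 ± 0.129 to 1.38 ± 0.240 CPM (log2 fold change 1.54, limma adjusted p = 0.0161). RET, the receptor tyrosine kinase for GDNF family ligands, fell from 106 ± 6.96 to 38.7 ± 2.54 CPM (log2 fold change -1.45, standard error 0.18, limma adjusted p = 0.00337), while its co-receptor GFRA1 rose from a trace, 0.129 ± 0.0394, to 0.750 ± 0.678 CPM (log2 fold change 1.62, limma adjusted p = 0.0419). DDC, which makes dopamine from L-DOPA, had 189 ± 51.5 CPM for PBS, 129 ± 14.6 CPM for METH and fell by 0.53 (limma adjusted p = 0.0873), and NRP1, a semaphorin receptor, fell by 1.39 (limma adjusted p = 0.0509). VIP (-0.59), BDNF (0.60) and PTPRU (0.48) did not pass the threshold. GCH1, SLC18A2 and RET also passed after adjustment over 20000 genes. Without METH 2 there were 3 calls in place of 6. DDC lost its call when any library other than PBS 10 was left out (limma adjusted p up to 0.192), NRP1 without PBS 10, METH 1 or METH 2 (up to 0.156) and GFRA1 without PBS 12 or METH 2 (up to 0.127).

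Of 23 genes described as NR4A targets outside the nervous system, 6 were in the table, 3 up-regulated, 2 down-regulated and 1 not past the threshold, with a median of 0.75, where 69.1% of all genes of the table were called in either direction. PDK4, a kinase that switches off pyruvate dehydrogenase, rose from 0.320 ± 0.198 to 1.92 ± 0.510 CPM (SD, n = 3 each; log2 fold change 2.35, limma adjusted p = 0.00906). SPP1, the secreted protein osteopontin, rose by 1.51 (limma adjusted p = 0.0205) and ENO3, a muscle enolase, by 0.90 (limma adjusted p = 0.0828). The cell cycle factor E2F1 fell by 0.92 (limma adjusted p = 0.0359) and UCP2, a mitochondrial carrier, fell by 0.82 (limma adjusted p = 0.0697). SLC2A4, the insulin-responsive glucose transporter, had 0.60 (limma adjusted p = 0.1004). PDK4 and SPP1 also passed after adjustment over 20000 genes. There were 2 calls without PBS 12 and 3 without METH 2 in place of 5. E2F1 lost its call without PBS 12 (limma adjusted p = 0.106), UCP2 without PBS 11, PBS 12, METH 2 or METH 3 (up to 0.180) and ENO3 without PBS 10, PBS 12, METH 1 or METH 2 (up to 0.241).

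Of 15 listed neighbours of the NR4A genes 4 were in the table, with 1 up-regulated and 1 down-regulated, where 33.3% of all genes of the table were up-regulated and 35.8% down-regulated. GRASP, 6943 bases from NR4A1, had 12.01 ± 4.04 CPM for PBS and 18.2 ± 4.88 CPM for METH (SD, n = 3 each; log2 fold change 0.62, limma adjusted p = 0.110), and its groups overlapped. KRT80, on the same chromosome, had 0.57 (limma adjusted p = 0.116). GPD2, 92942 bases from NR4A2, fell from 3.58 ± 0.926 to 1.51 ± 0.267 CPM (log2 fold change -1.18, limma adjusted p = 0.0236). ERP44, on the chromosome of NR4A3, rose by 0.49 (limma adjusted p = 0.0860), a call lost when any library other than PBS 11 was left out (up to 0.188), so that 1 call was left in place of 2 without PBS 10, PBS 12, METH 1 or METH 2. After limma adjustment over 20000 genes 0 calls were left, while 1 of the 4 had an unadjusted p under 0.05, and with adjustment over the table edgeR called 1 and DESeq2 called 2. Within 100 kb, 1 of 10 annotated neighbours of NR4A1, 1 of 3 of NR4A2 and 0 of 4 of NR4A3 were in the table. KRT80 and ERP44 lay beyond that distance.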

How the data were processed

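RNA of 3 METH-treated and 3 PBS-treated SH-SY5Y libraries had been sequenced on an Illumina HiSeq. The authors deposited 1 table of 4101 genes that they list as differing between the groups, with expression columns headed FPKM. Every value was a whole multiple of 1 step per column, whatever the gene (100% within 0.0006 CPM), so the deposited values are CPM, reads of a gene relative to the size of its library and not to gene length. In 1 column, PBS 10, the lowest value above 0 was 2 steps. The aligner, counting tool and genome build are not given in the sources used here. The authors' fold changes, p-values, direction flags and 2 columns of group means were not used. Other genes were not analysed here.

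Reads were recovered as value over step. METH was compared with PBS by limma 3.58.1 (R 4.3.3; lmFit, eBayes with trend, 2-sided) on log2(CPM + 0.1), without covariates, with Benjamini-Hochberg adjustment over the table and a threshold of 0.1. This test served the list genes only. Alternatives were edgeR 4.0.16 (quasi-likelihood test, TMM, which called 1163 genes up and 1637 down) and DESeq2 1.42.0 (Wald test) on the recovered reads, a pseudocount of 1 or 0.01, scaling to the same median ratio, a mean of at least 1 CPM, no trend, a threshold of 0.05, adjustment over 20000 genes, and each library left out in turn. The fits were tested on simulated data. Counting intervals (95%, exact) and the floor of 3 reads cover counting error only.

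The NR4A genes and the lists were chosen with earlier results of these data known. Named were the 3 members, the up to 6 called genes of each list with the largest change (all in the table for lists with 6 or fewer there), and the 5 genes with the highest r to each member among genes averaging 1 CPM or more in either group. Other names were chosen after their values were seen. Positions are from GENCODE release 29 (GRCh38), and promoter windows from RefSeq (GRCh38.p14). A planned comparison of the member proteins was not run, and 1 result on a marker gene is not reported here. Summaries used pandas 2.3.3 and numpy 2.4.6 under Python 3.11.15, intervals scipy 1.17.1 and plots matplotlib 3.10.9.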

Additional observations from a re-analysis of the deposited data

How the results depend on the processing

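The direction of the 3 NR4A differences was the same in all 12 ways of computing each. The size depended on the value added before taking log2 for the 2 members with few reads. With 1 CPM added it was 1.63 for NR4A2 and 2.87 for NR4A3, with 0.01 CPM added 6.35 for NR4A2, by edgeR 6.36 for NR4A2, and by DESeq2 6.48 for NR4A2 and 4.87 for NR4A3. List genes with means under 1 CPM for PBS moved likewise, and with 1 CPM added the log2 fold change was 0.28 for CAMK2A, 0.57 for GFRA1, 0.71 for SPP1, 0.75 for SLC18A2, 1.14 for PDK4, 2.75 for NPAS4 and 4.05 for CITED2. When each library was left out in turn, the differences were 3.50 to 4.24 for NR4A1, 3.99 to 4.38 for NR4A2 and 4.25 to 4.71 for NR4A3.

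Adjusted over 20000 genes, 219 in place of 1366 genes were up-regulated and 191 in place of 1467 down-regulated, and the calls were 2 among nuclear receptors, 2 in cAMP signalling, 0 in calcium signalling, 0 among partners, 3 among dopamine neuron genes, 2 among other targets, 13 among rapidly induced genes and 0 among neighbours. With a threshold of 0.05, 696 were up-regulated and 783 down-regulated, with 5 calls in calcium signalling, 1 among partners, 3 among other targets and 1 among neighbours. edgeR gave 1 call among partners and 1 among neighbours, and scaling to the same median ratio gave 1 among partners. Leaving out 1 library gave 412 to 1551 genes up-regulated and 563 to 1368 down-regulated, with 3 to 6 calls among nuclear receptors, 3 to 7 in cAMP signalling, 4 to 9 in calcium signalling, 0 to 2 among partners, 3 to 6 among dopamine neuron genes, 2 to 4 among other targets, 20 to 31 among rapidly induced genes and 1 to 2 among neighbours. The fewest over the table came without METH 2 (412 up, 563 down), followed by METH 1 (491 up, 628 down) and PBS 12 (747 up, 854 down). Fewer libraries were fitted there, and no other cause was tested. Of 610 values for 41 named list genes, 513 kept their direction and side of the threshold, 89 lost the call, 8 gained it and none changed direction.

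No paired analysis was possible because the PBS columns carry the numbers 10 to 12 and not the 1 to 3 of the labels. Depth limits NR4A2 with PBS, at 0 to 5 reads per library.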

Other observations

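The promoter windows of the genes that passed the threshold were searched for the same motifs as those of the members, as a description with no test. The CRE core (TGACG) was in the windows of 371 of 973 up-regulated genes with a window (38.1%), of 284 of 921 down-regulated genes (30.8%) and of 24.9% of all 27305 genes of the window table. The full CRE was in 5.45%, 3.26% and 2.03% of them. The NBRE, to which the NR4A proteins bind, was in 1.13% of the up-regulated, 1.41% of the down-regulated and 1.29% of all genes. The window table was not limited to genes of the expression table, and genes there that did not pass the threshold were not counted apart. Genes differ in base composition and in the number of windows they have, and the part of both in these shares was not tested.

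Among the genes of the table, the median METH minus PBS difference also varied with base composition. These genes were listed as differing between the groups, so the medians do not show how genes at large varied with GC content. The median log2 fold change was -0.37 in the class of genes with the lowest GC content, 0.24, -0.20 and 0.25 in the next classes and 0.44 in the highest, so it did not climb steadily. The class of NR4A3 had 0.24, that of NR4A2 -0.20 and that of NR4A1 0.44. The members themselves had differences of 4.47, 4.20 and 3.86, and the part of GC content in them was not tested.

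Some markers of noradrenergic neuroblastoma cells differed between the groups. GATA2, a transcription factor of sympathetic identity, fell by 0.70, the noradrenaline transporter SLC6A2 fell by 0.54 and the neuronal RNA-binding protein ELAVL4 fell by 0.69 (limma adjusted p = 0.0371, 0.0471 and 0.0512). The granule protein CHGB and the transporter SLC18A2 rose by 0.92 and 1.54 (limma adjusted p = 0.0205 and 0.0161), and MYCN, named after its value was seen, had -0.34. Among mesenchymal markers, VIM and SNAI2 rose by 0.89 and 0.97 (limma adjusted p = 0.0430 and 0.0335), and TWIST1 had 0.40. CD14 rose by 0.96 (limma adjusted p = 0.0733) at under 1 CPM. Of all genes in the table, 33.3% were called up and 35.8% down. The part of these markers in the NR4A values was not tested.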
